A study of Mus musculus with 8 samples.

Results

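Potassium channels outside the voltage-gated pore families, together with the auxiliary subunits of potassium channels, were followed in dorsal root ganglia (DRG) of E18.5 mouse embryos. A gene was included when its symbol named an inward rectifier (Kcnj), a two-pore channel (Kcnk), a calcium- or sodium-activated channel (Kcnma, Kcnn, Kcnt, Kcnu) or one of the subunit families Kcnmb, Kcnab, Kcne and Kcnip. The rule used names only and found 53 genes among the 55414 gene identifiers counted. Of these 53 genes, 43 passed the filter on low counts among the 17721 genes tested, and the 10 that did not pass are described at the end.

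The study asked what happens to somatosensory neurons when the transcription factor Dach1, which is normally lost from most of them during development, stays on. In the AD1 OE group (AdvillinCre/+;Rosa26Dach1/+, n = 4 libraries) a Cre recombinase placed at the Advillin locus, which is active in sensory neurons, removed a stop cassette and switched on a Dach1-IRES-EGFP transgene. By the paper's staining, Dach1 in such embryos was at first restricted much as in controls and came back in all sensory neurons later. The Control group (Advillin+/+;Rosa26Dach1/+, n = 4) carried the same silent transgene and no Cre, so Control embryos had both copies of Advillin and AD1 OE embryos had 1 copy replaced by Cre. The Rosa26Dach1 line was of mixed C57Bl/6J and CD1 background, and the ganglia held neurons and glia, with no sort. Nothing in the labels says that the libraries of a group came from different litters or extractions, so the p-values measure the spread between these 4 libraries a group. Library totals ran from 22339059 to 44025625 counts, and the 53 genes took from 0.148% to 0.165% of them. Dach1 stood at 95.9 ± 5.28 CPM (a gene's counts scaled to library size; SD, n = 4) in AD1 OE and at 32.6 ± 1.64 in Control, and Avil at 464 ± 12.0 and 892 ± 35.1. By Xist and Y-linked counts 3 of the 4 AD1 OE libraries and 1 of the 4 Control libraries were male, so results that a sex term ends are named below.

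Potassium channels set how easily a neuron fires: the current they pass holds the membrane near rest, repolarises the action potential and spaces the spikes of a train. Inward rectifiers and two-pore channels pass current at rest, BK and SK channels open with intracellular calcium, Slo2 channels open with intracellular sodium, and the auxiliary subunits change the trafficking and gating of pore subunits to which they bind. In DRG neurons the A-type current of Kv4 channels with their KChIP partners, the ATP-sensitive (KATP) channel and several two-pore channels are known to limit the firing of nociceptors, the neurons that detect painful stimuli.

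A gene was called when edgeR's quasi-likelihood test gave an adjusted p under 0.005 with an absolute log2(Fold Change) over 0.25, and a looser count at an adjusted p under 0.05 was kept beside it. In all, 5 of these genes were called and every one was lower in AD1 OE: Kcnj11, Kcnip1, Kcnip2, Kcnip4 and Kcnt2. They were 11.6% of the 43 tested members, against 2.57% of all tested genes called of which 1.78% were lower and 0.784% higher. With DESeq2, the test the paper used, Kcnip3 and Kcnmb2 were also called as lower, and Kcnj3, Kcnn1 and Kcnma1 as higher. At an adjusted p under 0.05 in edgeR, 14 members (32.6%) passed, 9 lower and 5 higher, against 6.55% of all tested genes, of which 4.14% were lower and 2.42% higher. The median absolute log2(Fold Change) was 0.21 over the 43 members and 0.084 over all tested genes. The signed medians were -0.076 over the members and 0.0018 over all tested genes. The AD1 OE and Control libraries did not overlap for 15 members (34.9%), 10 lower and 5 higher, against 13.0% of all tested genes, of which 7.26% were lower and 5.69% higher.

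**Figure D1:**
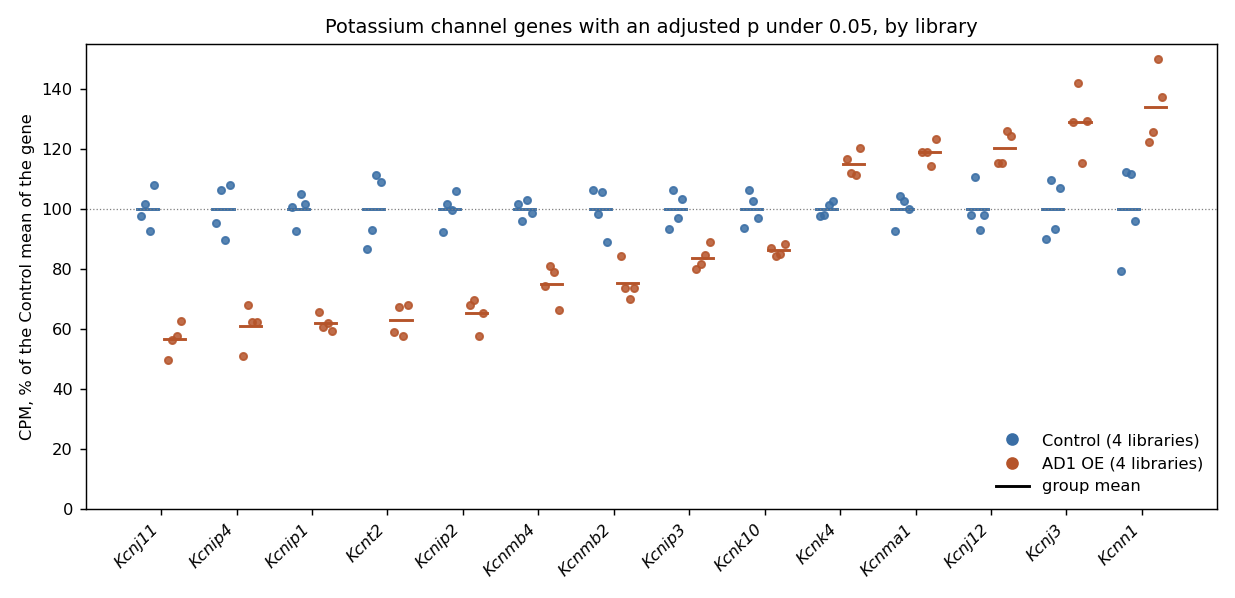
CPM of the 14 potassium channel genes with an adjusted p under 0.05, as a percentage of the gene's Control mean, with 1 point per library and a bar at each group mean. The 9 genes on the left lay lower and the 5 on the right higher in AD1 OE, and in none of the 14 did the 4 AD1 OE libraries overlap the 4 Control libraries.

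The start regions of 4 members are shown to let a reader see how varied they were: 2 of these genes were lower and 2 higher in AD1 OE, and each has a single transcription start in the RefSeq promoter table (build GRCm38.p6). Each run holds 250 bases before the start and 50 after it, in the direction of transcription, with CG dinucleotides, the site of vertebrate DNA methylation, in capitals.
Kcnip2 (chr19:45816014-45816313, minus strand): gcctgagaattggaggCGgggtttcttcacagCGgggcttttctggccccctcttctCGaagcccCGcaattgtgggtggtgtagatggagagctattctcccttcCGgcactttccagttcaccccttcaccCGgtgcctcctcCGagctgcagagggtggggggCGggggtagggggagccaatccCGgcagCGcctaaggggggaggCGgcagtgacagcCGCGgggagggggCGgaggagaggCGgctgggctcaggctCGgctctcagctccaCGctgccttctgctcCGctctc
Kcnt2 (chr1:140245468-140245767, plus strand): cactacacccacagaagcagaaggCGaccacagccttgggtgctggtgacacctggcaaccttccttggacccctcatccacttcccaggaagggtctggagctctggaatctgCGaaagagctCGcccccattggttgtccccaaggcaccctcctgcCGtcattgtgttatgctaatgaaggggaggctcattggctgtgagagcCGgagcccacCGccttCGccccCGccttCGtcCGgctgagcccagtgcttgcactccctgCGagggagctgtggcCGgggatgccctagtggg
Kcnma1 (chr14:24004156-24004455, minus strand): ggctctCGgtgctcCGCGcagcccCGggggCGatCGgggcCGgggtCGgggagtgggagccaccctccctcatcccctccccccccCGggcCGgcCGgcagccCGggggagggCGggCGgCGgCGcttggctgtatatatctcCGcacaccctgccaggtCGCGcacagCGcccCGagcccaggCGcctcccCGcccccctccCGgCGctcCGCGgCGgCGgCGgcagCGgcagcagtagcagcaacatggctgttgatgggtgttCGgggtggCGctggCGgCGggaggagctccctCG
Kcnj3 (chr2:55435720-55436019, plus strand): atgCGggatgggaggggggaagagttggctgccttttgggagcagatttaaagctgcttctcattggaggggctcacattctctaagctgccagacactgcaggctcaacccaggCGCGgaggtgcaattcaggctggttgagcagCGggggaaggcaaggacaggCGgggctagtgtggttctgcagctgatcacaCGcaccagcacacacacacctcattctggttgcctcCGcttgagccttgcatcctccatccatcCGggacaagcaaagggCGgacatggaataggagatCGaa
The Kcnip2, Kcnt2, Kcnma1 and Kcnj3 windows hold 18, 12, 36 and 10 CG dinucleotides. The table lists 63 starts for 43 of the 53 members, with a median of 9 CG dinucleotides a window, against 7 over all starts. The letters GGGCGG, searched on both strands, are found in the Kcnip2, Kcnma1 and Kcnj3 windows, in 27 of the 63 member windows and in 35.66% of all windows of this length. TATAAA is in none of the 4 windows, in 5 member windows and in 13.62% of all. In these 4 windows the CG count did not order the genes by direction: the higher genes hold the most and the fewest. These counts describe the windows only.

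The KChIP genes were the subfamily in which every member moved. KChIPs are calcium-binding proteins that attach to Kv4 pore subunits, bring them to the membrane and slow their inactivation. All 4 were lower in AD1 OE at an adjusted p under 0.05, and 3 of the 4 were called.

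Kcnip1, on chromosome 11, measured 10.96, 10.1, 10.4 and 9.89 CPM in the AD1 OE libraries and 16.8, 15.5, 17.5 and 17.0 CPM in the Control libraries. It was lower by 0.69 on the log2 scale (SE 0.064, adjusted p = 4.16e-05 in edgeR's quasi-likelihood test), and the highest AD1 OE library lay well under the lowest Control one. Kcnip4, on chromosome 5, measured 11.6, 15.4, 14.2 and 14.2 CPM against 21.7, 24.2, 20.4 and 24.5 CPM. Its log2(Fold Change) was -0.73 (SE 0.092, edgeR adjusted p = 4.33e-04), and again the groups did not overlap. Kcnip2, on chromosome 19, measured 20.5, 21.0, 17.4 and 19.7 CPM against 27.9, 30.7, 30.1 and 31.9 CPM. It was lower by 0.62 (SE 0.068, edgeR adjusted p = 1.56e-04), so that the AD1 OE mean was 65.2% of the Control mean, against 61.9% for Kcnip1 and 60.9% for Kcnip4.

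Kcnip3, which encodes the KChIP also known as the transcriptional repressor DREAM, was the most abundant KChIP per kilobase and moved least. It measured 28.5, 29.1, 30.1 and 31.7 CPM against 33.3, 37.8, 34.5 and 36.7 CPM, with a log2(Fold Change) of -0.26 (SE 0.056, edgeR adjusted p = 0.0178). The groups were separate, but the nearest AD1 OE and Control libraries lay close together, and leaving out AD1 OE replicate 1, AD1 OE replicate 2, Control replicate 2 or Control replicate 4 took the adjusted p to between 0.0514 and 0.0744. Kcnip3 made up 43.1% ± 1.79 of the summed KChIP level per kilobase in AD1 OE and 36.3% ± 0.694 in Control (SD, n = 4). Kcnip4, with 346 to 869 counts a library, shares 267 exonic bases with 2 genes on the opposite strand. These were 5730480H06Rik, at 271 to 551 counts (log2(Fold Change) -0.16, edgeR adjusted p = 0.131), and Gm20700, at 3 to 39 counts (-1.84, edgeR adjusted p = 0.00641). The strand setting of the counting is not given in the sources used here, and the part of these reads in the Kcnip4 result was not tested.

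The pore subunits to which KChIPs bind did not move with them as a group. Kcnd1 stood at 159 ± 8.26 CPM in AD1 OE and 153 ± 8.25 in Control (log2(Fold Change) 0.060, adjusted p = 0.549), and Kcnd3 at 93.3 ± 2.30 and 87.6 ± 5.54 CPM (0.090, adjusted p = 0.323). Kcnd2 was the exception, at 5.18, 5.03, 5.13 and 4.68 CPM against 8.01, 6.14, 7.11 and 6.98 CPM. It was lower by 0.49 (SE 0.096, adjusted p = 0.00856). Summed per kilobase of exon, the KChIP genes reached 18.9 to 20.1 CPM per kb in AD1 OE and 26.1 to 29.1 in Control, whereas the Kv4 genes reached 39.4 to 42.9 and 36.7 to 41.0. The summed KChIP level per summed Kv4 level was 0.480 ± 0.0177 in AD1 OE and 0.703 ± 0.0353 in Control.

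The DPP proteins are the second kind of Kv4 partner, single-pass membrane proteins that speed up the gating of the channel. Dpp6 was lower by 0.26 (SE 0.044, adjusted p = 0.00289), from 446 ± 17.4 to 372 ± 12.3 CPM, and Dpp10 by 0.37 (SE 0.054, adjusted p = 0.00132), from 50.7 ± 2.28 to 39.3 ± 2.43 CPM. Both were called, and in both the groups did not overlap. With a sex term Dpp10 was still called and Dpp6 was not (adjusted p = 0.00596).

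**Figure D2:**
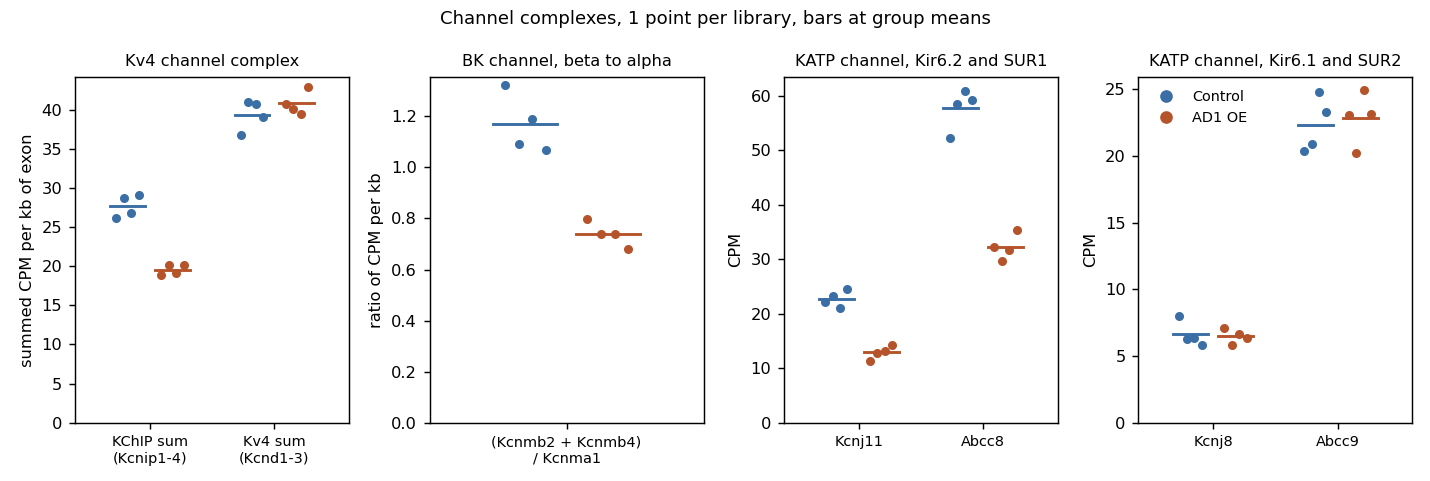
Channel complexes by library, with 1 point per library and a bar at each group mean. From left to right the panels show summed CPM per kb of exon of the KChIP and Kv4 genes, the ratio of Kcnmb2 plus Kcnmb4 to Kcnma1, CPM of Kcnj11 and Abcc8, and CPM of Kcnj8 and Abcc9. The KChIP sum, the BK ratio, Kcnj11 and Abcc8 are lower in every AD1 OE library, while the Kv4 sum, Kcnj8 and Abcc9 overlap between groups.

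The lowest log2(Fold Change) among the called members was that of Kcnj11, which encodes Kir6.2, the pore of the KATP channel of neurons and pancreatic beta cells. KATP channels close when ATP rises and so tie excitability to metabolism. Kcnj11 measured 11.3, 12.8, 13.2 and 14.2 CPM in AD1 OE and 22.2, 23.2, 21.1 and 24.6 CPM in Control. Its log2(Fold Change) was -0.83 (SE 0.078, edgeR adjusted p = 4.36e-05), which left AD1 OE at 56.6% of the Control mean. Abcc8, which encodes SUR1, the sulfonylurea receptor that surrounds Kir6.2, measured 32.3, 29.6, 31.6 and 35.3 CPM against 52.1, 58.4, 60.9 and 59.2 CPM. It was lower by 0.84 (SE 0.064, edgeR adjusted p = 8.73e-06), an almost equal change, and its groups were as clearly apart.

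Both genes of this channel lie on chromosome 7, with a single predicted gene, Gm51481, between them in RefSeq order. The Kcnj11 level per Abcc8 level, per kilobase, was 0.882 ± 0.0794 in AD1 OE and 0.871 ± 0.0784 in Control. The other KATP pair, Kcnj8 (Kir6.1) and Abcc9 (SUR2), lies on chromosome 6 with no gene between, and is known from vascular mural cells. Kcnj8 stood at 6.47 ± 0.520 and 6.62 ± 0.953 CPM (log2(Fold Change) -0.020, adjusted p = 0.949) and Abcc9 at 22.8 ± 1.97 and 22.3 ± 2.07 CPM (0.032, adjusted p = 0.880). Whether the 2 pairs responded differently was not tested.

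Among the 11 tested Kir genes, 3 passed an adjusted p of 0.05: Kcnj11 lower, and Kcnj3 and Kcnj12 higher. Kcnj3 encodes Kir3.1 (GIRK1), a pore subunit that the beta-gamma dimers of G proteins open downstream of opioid and other inhibitory receptors. It measured 30.5, 33.5, 27.2 and 30.5 CPM in AD1 OE and 21.2, 25.9, 22.05 and 25.2 CPM in Control, with a log2(Fold Change) of 0.36 (SE 0.079, edgeR adjusted p = 0.0172). The lowest AD1 OE library was just above the highest Control library. With a sex term the value was 0.28 (adjusted p = 0.0718), and without AD1 OE replicate 2 or Control replicate 3 the adjusted p was 0.0504 or 0.0537. Its exons overlap those of Gm26794 on the opposite strand over 1621 bases.

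Kir3.1 needs a second Kir3 subunit to make a working surface channel in neurons. Kcnj9 (Kir3.3) stood at 0.612 ± 0.0637 CPM in AD1 OE and 0.619 ± 0.0382 in Control (adjusted p = 0.999). Kcnj6 (Kir3.2) and Kcnj5 (Kir3.4) did not pass the filter, with at most 10 and 4 counts in any library. Of the 9 genes listed for the G proteins that gate Kir3, none was called, and 2 were lower at an adjusted p under 0.05, against 6 at an unadjusted p under 0.05. These were Gnao1, lower by 0.18 (adjusted p = 0.0391), and Gnai2, lower by 0.17 (adjusted p = 0.0433), and with a sex term neither passed (adjusted p = 0.0554 and 0.152). By DESeq2 no gene of the list was called either, and 4 passed an adjusted p of 0.05.

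Kcnj12 encodes Kir2.2, a strong inward rectifier. It measured 25.5, 25.5, 27.9 and 27.6 CPM in AD1 OE and 21.7, 24.5, 20.6 and 21.7 CPM in Control, with a log2(Fold Change) of 0.26 (SE 0.064, edgeR adjusted p = 0.0296). Control replicate 2 came within about 1 CPM of the lowest AD1 OE libraries, and leaving out any library but AD1 OE replicate 2 and Control replicate 2 took the adjusted p over 0.05, to at most 0.0824. Kcnj10 (Kir4.1), the potassium-buffering channel of satellite glia, was the most abundant Kir gene per kilobase in Control, and second to Kcnj12 in AD1 OE, at 49.9 ± 7.26 CPM in AD1 OE and 50.4 ± 4.44 in Control (log2(Fold Change) -0.016, adjusted p = 0.953). Its usual partner Kcnj16 (Kir5.1) had the lowest fitted value of any member, -1.60, with an SE of 0.58 and an adjusted p of 0.155. In Control it measured 3.46, 0.374, 0.707 and 1.53 CPM and in AD1 OE 0.339 to 0.727 CPM, so Control replicates 1 and 4 lay above all other libraries and the groups overlapped. Kcnj16 and Kcnj4 were the only tested members below the filter's level of 0.373 CPM in some library, and Kcnj4 (0.60, adjusted p = 0.289) was above it in all libraries of AD1 OE only.

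Of the 11 tested two-pore channel genes, whose products carry background potassium current, 2 moved at an adjusted p under 0.05, in opposite directions. With the filter on low counts none was called by edgeR, DESeq2 or limma-voom, and 6 had an unadjusted p under 0.05 in edgeR. Kcnk10 and Kcnk4 encode TREK-2 and TRAAK, relatives in the mechano- and heat-sensitive TREK group. Kcnk10 measured 40.5, 39.2, 39.6 and 41.2 CPM in AD1 OE and 43.6, 49.6, 47.8 and 45.2 CPM in Control, a log2(Fold Change) of -0.21 (SE 0.049, edgeR adjusted p = 0.0229). Kcnk4 measured 33.1, 31.8, 31.6 and 34.1 CPM against 27.7, 27.8, 28.8 and 29.2 CPM, a log2(Fold Change) of 0.20 (SE 0.048, edgeR adjusted p = 0.0251). Both differences were small and both groups separate. Each lost its adjusted p of 0.05 in 5 of the 8 fits that left out a library and with a sex term, where it was 0.0745 for Kcnk10 and 0.105 for Kcnk4. Kcnk4 shares 587 exonic bases with Catsperz on the same strand.

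Kcnk2, which encodes TREK-1 and completes the group, stood at 28.5, 25.6, 26.3 and 20.04 CPM in AD1 OE and 22.7, 20.1, 19.6 and 19.995 CPM in Control (log2(Fold Change) 0.29, SE 0.097, adjusted p = 0.116). AD1 OE replicate 4 lay among the Control libraries. Kcnk18 (TRESK), a calcineurin-regulated channel typical of sensory neurons, was the most abundant two-pore gene per kilobase, at 34.9 ± 1.33 and 34.1 ± 3.22 CPM (log2(Fold Change) 0.032, adjusted p = 0.853). Kcnk9 (TASK-3) was the member just outside the looser limit, at 13.6, 15.7, 13.5 and 16.4 CPM against 24.9, 16.3, 17.5 and 23.2 CPM (-0.47, SE 0.13, adjusted p = 0.0545), and its groups overlapped. Its adjusted p was 0.00687 in DESeq2, 0.0290 with a sex term and 3.15e-04 in edgeR without a filter on low counts, where it was called, but from 0.0199 to 0.163 with a library left out. S100a10, whose product helps bring TASK-1 channels to the membrane, stood at 412 ± 18.51 and 440.4 ± 38.3 CPM (adjusted p = 0.453). Kcnk13 (THIK-1) was the only member whose groups did not overlap while its adjusted p missed 0.05, at 1.33 to 1.76 CPM in AD1 OE and 1.81 to 2.203 in Control (-0.44, adjusted p = 0.128).

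The BK channel genes split by role. BK channels open with calcium and depolarisation together and end the action potential, and the beta subunits set how quickly they open and whether they inactivate. The pore gene Kcnma1 was higher in AD1 OE and the beta subunit genes Kcnmb2 and Kcnmb4 were lower, while the beta subunit gene Kcnmb1 did not pass.

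Kcnma1 measured 116, 117, 112 and 121 CPM in AD1 OE and 90.7, 102, 101 and 97.9 CPM in Control, and every AD1 OE library lay above every Control library. Its log2(Fold Change) was 0.2498 (SE 0.042, edgeR adjusted p = 0.00314), so it passed the p limit of the call and fell just short of the fold limit of 0.25. The member just past that fold limit among those with an adjusted p under 0.005 was Kcnip2 at -0.62. DESeq2, edgeR with relative log expression (RLE) factors, plain library sizes, a stricter filter on low counts or none gave from 0.2511 to 0.268 and counted it as called. Its adjusted p was 0.0209 with a sex term and from 0.00598 to 0.0124 in 6 of the 8 fits that left out a library, so there it was over 0.005, and its value was 0.22 without Control replicate 1. Its exons share 1016 bases with 4930519K11Rik on the opposite strand, which held at most 4 counts in any library.

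Kcnmb2, which encodes the inactivating beta2 subunit, measured 12.9, 11.3, 10.7 and 11.3 CPM against 16.3, 15.1, 16.2 and 13.6 CPM, a log2(Fold Change) of -0.40 (SE 0.080, edgeR adjusted p = 0.0108). Kcnmb4, which encodes the neuronal beta4 subunit, measured 4.50, 4.90, 4.78 and 4.03 CPM against 6.16, 5.82, 6.25 and 5.99 CPM, a log2(Fold Change) of -0.41 (SE 0.090, edgeR adjusted p = 0.0169). Neither overlapped between groups. A sex term gave Kcnmb2 an adjusted p of 0.05002 and Kcnmb4 one of 0.0721, both just outside the limit, and Kcnmb4 also left it without AD1 OE replicate 1 (0.0569) or Control replicate 3 (0.0557). Kcnmb4, with 110 to 212 counts a library, shares 1048 exonic bases with the antisense genes Kcnmb4os1, at 3 to 12 counts, and Kcnmb4os2, at 26 to 75 counts (log2(Fold Change) -0.51, adjusted p = 0.112), and without strand the reads of these genes cannot be told apart.

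Per kilobase, Kcnmb2 plus Kcnmb4 came to 0.739 ± 0.0494 of Kcnma1 in AD1 OE and 1.17 ± 0.115 in Control, with the highest AD1 OE library at 0.800 and the lowest Control library at 1.07. Kcnmb1, the beta1 subunit known from smooth muscle, stood at 3.61 ± 0.427 and 3.54 ± 0.423 CPM (adjusted p = 0.947). Kcnmb1 lies inside Kcnip1 on the opposite strand of chromosome 11 with no exonic base in common, and Kcnip1 was lower while Kcnmb1 overlapped between groups. Of the 3 tested gamma subunit genes of BK, Lrrc26, Lrrc38 and Lrrc55, none passed an adjusted or an unadjusted p of 0.05 in edgeR, and none was past an adjusted p of 0.05 in DESeq2.

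**Figure D3:**
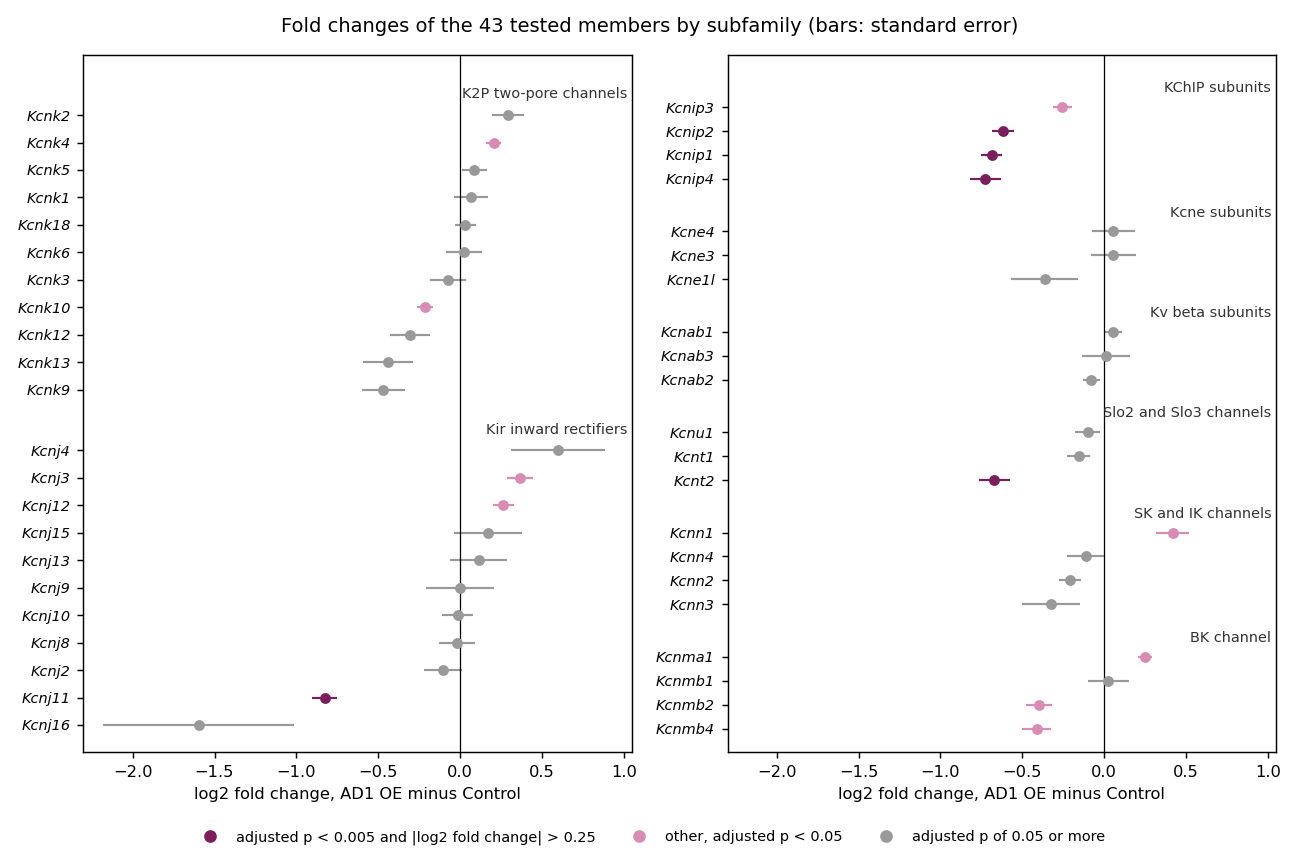
log2(Fold Change), AD1 OE minus Control, with its standard error for the 43 tested members grouped by subfamily. Dark points are called, pale pink points have an adjusted p under 0.05 and grey points do not. All 4 KChIP points lie left of 0 and the BK points fall on both sides of it, with Kcnma1 at 0.2498 and Kcnmb4 at -0.41, while Kcnj16 has the widest error bar, 0.58.

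SK channels are opened by calcium through bound calmodulin and carry the afterhyperpolarisation that follows a spike. Kcnn1 (SK1) measured 62.4, 64.1, 76.4 and 70.1 CPM in AD1 OE and 40.5, 57.3, 56.9 and 49.0 CPM in Control. Its log2(Fold Change) of 0.42 (SE 0.10, edgeR adjusted p = 0.0282) was the highest of the 14 members past 0.05, and the groups were separate. Without AD1 OE replicate 3, AD1 OE replicate 4 or Control replicate 4 the adjusted p was 0.0523, 0.0666 or 0.0742. Kcnn1 shares 132 exonic bases with A230052G05Rik on the opposite strand.

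The other 3 SK and IK genes had negative values that did not pass: Kcnn2 (SK2) -0.21 (adjusted p = 0.106), Kcnn3 (SK3) -0.33 (adjusted p = 0.361) and Kcnn4 (IK, the intermediate-conductance channel) -0.11 (adjusted p = 0.664). Kcnn1 made up 66.3% of the Control level per kilobase of these 4 genes, and their sum was 19.8 ± 1.66 CPM per kb in AD1 OE and 16.8 ± 1.55 in Control. Of the 6 listed genes for calmodulin and casein kinase 2, the proteins bound to SK channels, none passed an adjusted p of 0.05 in edgeR, 3 had an unadjusted p under 0.05 and 2 passed in DESeq2.

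The Slo2 genes differed in both level and change. Slo2 channels open with intracellular sodium and contribute a large delayed outward current in sensory neurons. Kcnt2 (Slick) measured 10.1, 11.6, 9.91 and 11.7 CPM in AD1 OE and 14.9, 16.0, 19.1 and 18.8 CPM in Control. It was lower by 0.67 (SE 0.094, edgeR adjusted p = 9.34e-04), with AD1 OE at 63.0% of the Control mean and a clear gap between the groups. The call ended without AD1 OE replicate 1, where the adjusted p was 0.00528. Kcnt1 (Slack), the most abundant Slo2 gene per kilobase, stood at 403 ± 34.9 and 449 ± 38.7 CPM (log2(Fold Change) -0.16, adjusted p = 0.269). Per kilobase Kcnt2 was 0.0372 ± 0.00307 of Kcnt1 in AD1 OE and 0.0528 ± 0.00363 in Control. Kcnu1 (Slo3), a channel known from sperm, measured 7.004 ± 0.248 and 7.51 ± 0.536 CPM (adjusted p = 0.539).

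The Kv beta subunits, cytoplasmic partners of Kv1 channels that can confer fast inactivation, showed no member past an adjusted or an unadjusted p of 0.05 in edgeR, nor past an adjusted p of 0.05 in DESeq2. Kcnab2 was the most abundant member of all per kilobase and stood at 362 ± 14.7 CPM in AD1 OE and 383 ± 23.9 in Control (log2(Fold Change) -0.081, adjusted p = 0.451). Kcnab1 stood at 52.8 ± 2.7005 and 50.8 ± 2.76 CPM (0.054, adjusted p = 0.651). Their Kv1 pore partners moved apart: Kcna4 was lower by 0.92 (adjusted p = 1.91e-06), from 21.5 ± 0.427 to 11.3 ± 0.463 CPM, while Kcna2 was higher by 0.32 (adjusted p = 0.00221), Kcna1 by 0.27 (adjusted p = 0.0291) and Kcna5 by 0.63 (adjusted p = 0.0108). With a sex term Kcna2 was no longer called (0.28, adjusted p = 0.0125) and Kcna1 no longer passed 0.05 (adjusted p = 0.123). Kcna4 encodes the Kv1 subunit that carries its own inactivation particle.

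The Kcne genes encode small single-pass subunits of Kv7 and other channels. None of the 3 tested passed an adjusted or an unadjusted p of 0.05 in edgeR, and none an adjusted p of 0.05 in DESeq2. Kcne1l, the most abundant of them per kilobase, ranged from 4.21 to 7.80 CPM in AD1 OE and from 5.68 to 10.3 in Control (log2(Fold Change) -0.36, adjusted p = 0.381). Of the Kv7 pore genes, which carry the M-current, Kcnq5 was called and lower by 0.38 (adjusted p = 0.00220) and Kcnq3 was higher by 0.22 (adjusted p = 0.0291). A sex term took Kcnq5 out of the calls (adjusted p = 0.00929) and Kcnq3 over 0.05 (adjusted p = 0.0777).

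**Figure D4:**
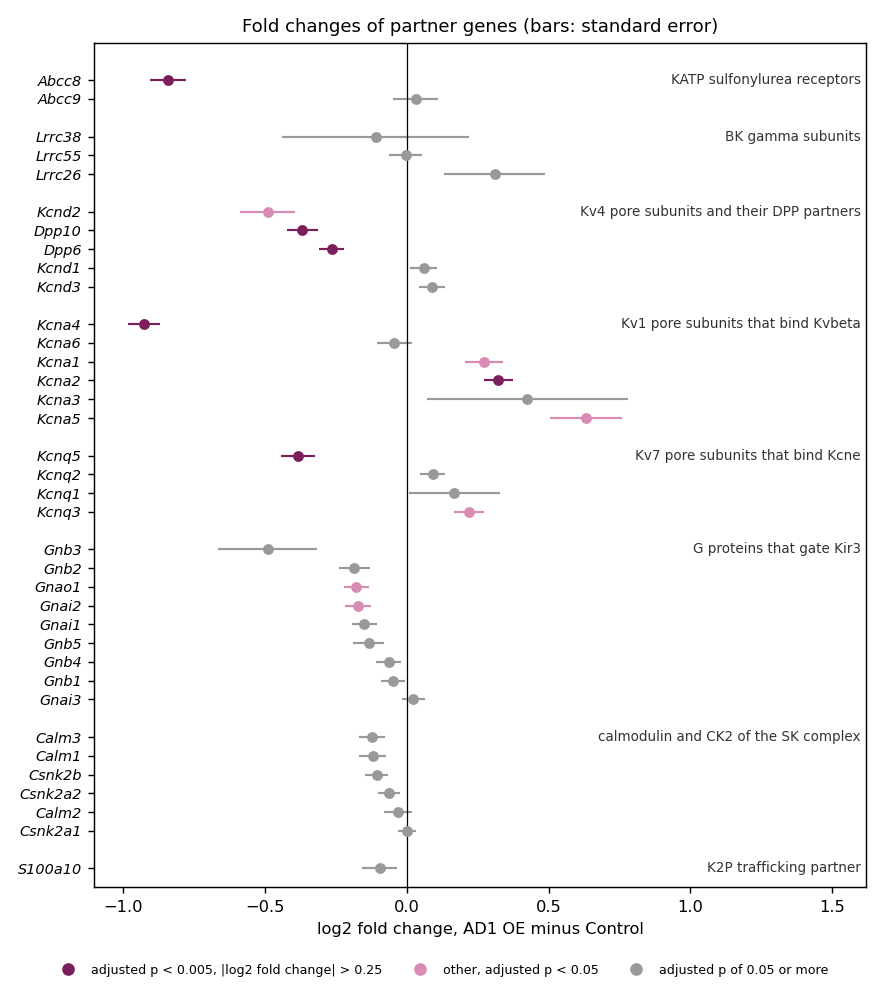
log2(Fold Change), AD1 OE minus Control, with its standard error for the partner genes grouped by the channel they belong to. Dark points are called, pale pink points have an adjusted p under 0.05 and grey points do not. Kcna4 at -0.92 and Abcc8 at -0.84 lie farthest to the left, and Kcna2 at 0.32 is the called point on the right.

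Over the whole list of 38 partner genes, 37 were tested, 6 were called (16.2%, against 2.57% of all tested genes), 5 lower and 1 higher, and 13 passed an adjusted p of 0.05 (35.1%, against 6.55%), 9 lower and 4 higher. The number called fell to 3 with a sex term and to between 2 and 6 with a library left out, while Abcc8 and Kcna4 were called in each of these fits. The partner list was chosen with earlier results of these data known, so its shares are a description only.

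In Control the level per kilobase of exon spanned from Kcnab2, at 68.7 ± 4.29 CPM per kb, and Kcnt1, at 47.2 ± 4.08, down to members near 0. Neither of these overlapped the next in the order. Kcnn1 at 11.1 ± 1.73, Kcnip3 at 10.04 ± 0.588, Kcnk18 at 9.83 ± 0.928, Kcnj10 at 9.32 ± 0.821, Kcnip2 at 8.67 ± 0.485 and Kcnj12 at 8.05 ± 0.601 CPM per kb followed, and each overlapped the next in this run. In Control 40 of the 43 tested members had a mean of at least 1 CPM, 24 of at least 10 and 2 of at least 100. In AD1 OE Kcnab2, Kcnt1 and Kcnn1 again came first by mean, whereas Kcnj11 stood at place 19 rather than 11, Kcnip4 at 16 rather than 10 and Kcnip2 at 12 rather than 7. With the longest transcript in place of the exon union as length, 6 of the 8 subfamilies kept the same leading gene, while Kcnj12 led the Kir genes and Kcnk4 the two-pore genes.

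**Figure D5:**
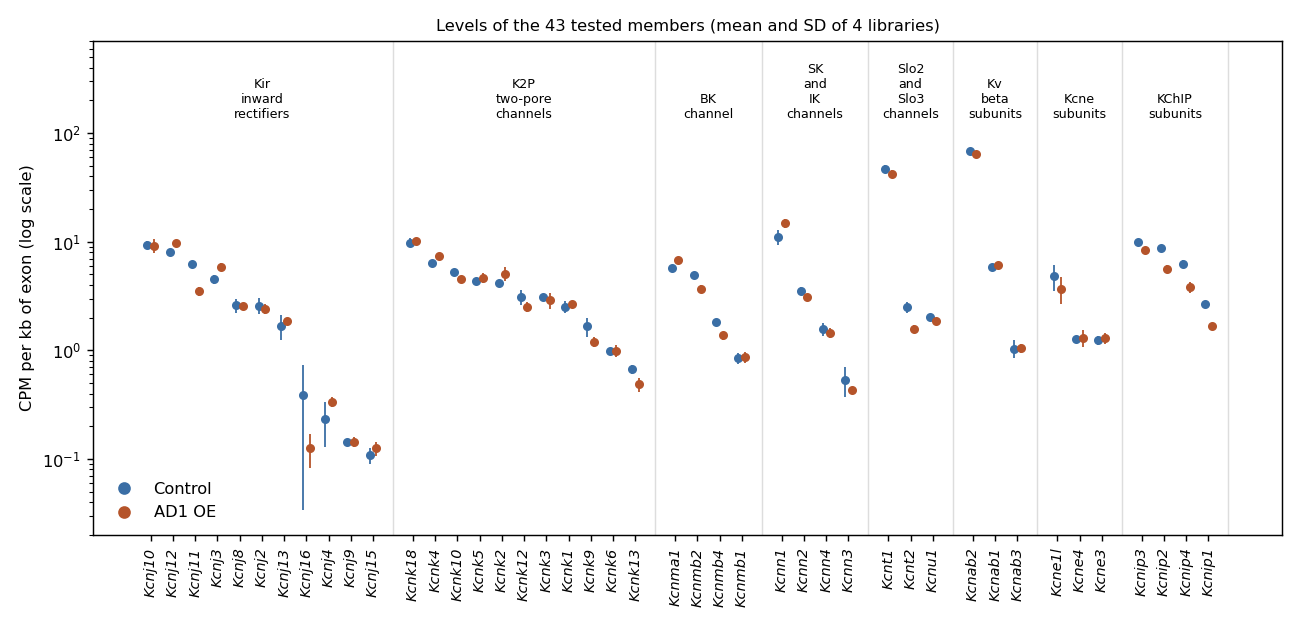
Level in CPM per kb of exon, on a log axis, of the 43 tested members, ordered within each subfamily by their Control mean, with mean and SD of the 4 libraries of each group. Kcnab2 and Kcnt1 stand above all others, and the KChIP genes, Kcnj11 and Kcnt2 show the AD1 OE point below the Control point.

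The 29 tested members with an adjusted p of 0.05 or more had 16 values below 0 and 13 above 0, a median absolute log2(Fold Change) of 0.10 and adjusted p-values from 0.0545 to 0.999. The 10 members that were not tested had few counts. Kcnj1 had no count in any library, and 3 counts would be from 0.0681 to 0.134 CPM in these libraries. The highest count in any library was 2 for Kcne1, 4 for Kcnj5 and for Kcnmb3, 9 for Kcnk15, 10 for Kcnj6, 12 for Kcne2, 18 for Kcnj14, and 19 for Kcnk7 and for Kcnk16.

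Markers of the cell types in the ganglion were set beside these results, and in bulk tissue fewer cells of a type and less RNA per cell cannot be told apart. The paper's counts on stained E18.5 sections (Islet1, Prdm12, TrkB and TrkC) found main neuron subtypes in appropriate numbers in AD1 OE embryos. The summed level of 8 pan-neuronal markers was 4899 to 5549 CPM in AD1 OE and 5267 to 5443 in Control, with no marker called by edgeR, DESeq2 or limma-voom and 3 at an unadjusted p under 0.05. The sum of 8 nociceptor markers was 2855 to 3086 CPM against 3483 to 3864, which left AD1 OE at 80.2% of Control, and Scn10a, Calca, Tac1 and Mrgprd of that list were called as lower. The sum of 8 markers of large-diameter neurons was 1317 to 1403 CPM against 1396 to 1508, with Etv1 called as lower. Of that list Nefh was also lower, by 0.24 (edgeR adjusted p = 0.0116), and Ntrk3 was higher by 0.30 (edgeR adjusted p = 0.0171). The nociceptor sum moved with the KChIP genes, Kcnj11, Abcc8 and Kcnt2, and its part in those results was not tested.

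The sums of the other lists overlapped between groups, and these lists had no called gene in edgeR. Their only marker past an adjusted p of 0.05 was Pdgfra of the fibroblast list, higher by 0.23 (edgeR adjusted p = 0.0232). In that list 4 markers had an unadjusted p under 0.05 in edgeR. The 8 markers of satellite and Schwann glia summed to 1041 to 1302 CPM in AD1 OE and 1077 to 1301 in Control, which stands beside the values of Kcnj10, and the 8 mural and smooth muscle markers to 283 to 324 and 294 to 309 CPM, which stands beside those of Kcnj8, Abcc9 and Kcnmb1. Endothelial markers summed to 323 to 384 and 339 to 347 CPM, fibroblast markers to 5777 to 6542 and 4947 to 6065, macrophage markers to 79.3 to 101 and 88.0 to 91.9, erythroid markers to 237 to 812 and 224 to 392, skeletal muscle markers to 131 to 676 and 157 to 423, and spinal cord markers to 4.71 to 7.19 and 3.74 to 12.6. None of the markers listed was at 0 in all libraries.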

How the data were processed

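Bulk RNA-seq libraries, 4 AD1 OE and 4 Control, were analysed. The authors dissected DRG, made libraries with a stranded mRNA kit, and deposited raw counts per Ensembl gene. By the submitters' processing notes the tools were bcl2fastq 2.20.0.422, STAR 2.7.8a and featureCounts 2.0.1 with genome build GRCm39, and the strand setting of the counting is not given in the sources used here. Symbols, chromosomes, exon lengths and shared exons came from GENCODE M21 (build GRCm38), whose coordinates were not mixed with the counts.

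Counts were filtered with filterByExpr, scaled by TMM and tested with edgeR 4.0.16 (R 4.3.3) by the quasi-likelihood F test, with Benjamini-Hochberg adjustment over all 17721 tested genes. The common biological coefficient of variation was 8.22%. CPM were computed per TMM-scaled library total, and CPM per kb divides by the length of the union of a gene's exons. SE is the absolute log2(Fold Change) over the root of F. DESeq2 1.42.0, limma-voom 3.58.1, other scalings and filters, a sex term, a replicate block and fits without each library were alternatives, and the fits were tested on simulated data. Replicate pairs differed by 4.02 to 11.1 times the sampling noise (chi-square per degree of freedom), so none was a repeat deposit.

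Members past an adjusted p of 0.05 were given with every library's value. The leading member of each subfamily, members nearest a limit, untested members and partners past 0.05 were named, not always with every library's value. A listed partner gene enters the counts but is not reported here. The members and all lists were chosen with earlier results of these data known, so no p is adjusted over a list. The range of CPM that 3 counts give comes from the library totals alone and measures neither counting error nor the spread between libraries.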

Additional observations from a re-analysis of the deposited data

Results flagged for a closer look

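Of the 86 sets of 4 libraries (43 members in 2 groups) examined for a library far from the rest of its group by Dixon's ratio, 3 stood out, and chance alone marks about 1 set in 20. Kcnk13 was low in Control replicate 3, at 1.81 CPM against 2.15 to 2.203 in the other Control libraries. Kcnk2 was high in Control replicate 1, at 22.7 CPM against 19.6 to 20.1. Kcnab2 was low in AD1 OE replicate 2, at 340.1 CPM against 368.1 to 370.5. None of these genes had an adjusted p under 0.05.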

How the results depend on the processing

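Over the 14 members past an adjusted p of 0.05 and 16 alternatives each, 224 fits in all, no fold change changed sign, 189 kept an adjusted p under 0.05 and 35 did not. The number of members called, 5 as reported, was 10 with DESeq2 (7 lower, 3 higher), 11 without a filter on low counts (8 lower, 3 higher), and from 4 to 6 with a library left out. All 5 called genes were among those 10 and 11, and Kcnt2 was the gene lost without AD1 OE replicate 1. An adjusted p under 0.05 with an absolute log2(Fold Change) over 1 gave 0 members in edgeR, with 1 gene (Kcnj16) at an unadjusted p under 0.05 and over that fold, and 1 in DESeq2. The members past an adjusted p of 0.05, 14 as reported, were 9 to 13 with a library left out, with 9 without AD1 OE replicate 1, and 10 with a sex term, 9 of them shared. The members whose groups did not overlap were 15 to 18. The partner genes called, 6 as reported, were 10 with DESeq2, 10 without the filter, 3 with a sex term, 3 with the replicate block and from 2 to 6 with a library left out: 2 without AD1 OE replicate 1, and 3 without AD1 OE replicate 2, AD1 OE replicate 4, Control replicate 2, Control replicate 3 or Control replicate 4. The cause of these changes was not tested. Dach1 and Avil kept their directions in every alternative. Nothing in the labels says that a shared number marks a shared litter or day, and the correlations of same-numbered libraries' deviations were -0.016, -0.070, -0.027 and 0.34. With the number as a replicate block 5 members were called, the same 5 genes, and 12 passed 0.05, 11 of them shared. Depth limits the 10 untested members and those under about 1 CPM.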
